A study of Homo sapiens with 6 samples.

Results

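The genes described here are the 8 subunits of the augmin complex, *HAUS1* to *HAUS8*, together with *TACC3* and *CKAP5*, which encode partners at the spindle poles. They were taken by gene symbol, without regard to their values, and all 10 were found among the 28395 genes of the count table. RNA was sequenced from NCI-H146 (H146) cells, an established human small-cell lung cancer (SCLC) line with the genotype given as WT, on day 2 after transfection. The control siRNA group received a negative control siRNA and the siKIFC1 group an siRNA against *KIFC1*, with 3 libraries labelled as biological replicates in each. The sources used here describe no selection of transfected cells, and a single siRNA and a single cell line were sequenced, so an effect of *KIFC1* loss and any other effect of that siRNA cannot be told apart.

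Augmin binds along the side of an existing spindle microtubule and recruits the gamma-tubulin ring complex, which starts a new microtubule there as a branch. This amplification builds the dense bundles of the mitotic spindle and helps keep centrosomes and spindle poles intact. TACC3, once phosphorylated by Aurora A, binds clathrin and CKAP5 (also called ch-TOG), and this assembly crosslinks the microtubules of kinetochore fibers. CKAP5 is also a microtubule polymerase. KIFC1 is a kinesin-14 motor that walks toward microtubule minus ends, focuses spindle poles and clusters supernumerary centrosomes. The comparison asks whether mRNA levels of these other spindle pole factors changed when KIFC1 was knocked down. It measures mRNA only, and in bulk RNA, fewer cells of a kind and less RNA per cell cannot be told apart.

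The libraries held between 15392374 and 17754458 counts each, and the 10 genes together took between 0.0872% and 0.104% of them. For *KIFC1* itself (NCBI gene ID 3833), the control libraries held 14, 4 and 14 counts and the siKIFC1 libraries 1, 1 and 0. The adjusted p of this difference was 0.0739 (edgeR), and 0.00459 once the replicate number entered the fit as a block. Every one of its 32-base words (100%) also occurs on the 261 alternate sequences of GRCh38, so these low counts are a weak check of the labels. Of the neuroendocrine markers, *INSM1* lay between 613 and 818 CPM (counts scaled to a common library size). *NCAM1* lay between 162 and 262 CPM, *SCG3* between 136 and 178, *SYP* between 96.3 and 156 and *DLL3* between 53.4 and 86.3. *CHGA* was low and uneven, with 147, 104 and 142 counts in control and 145, 818 and 482 in siKIFC1 libraries. *NEUROD1*, *POU2F3*, *YAP1*, *VIM* and *PECAM1* had at most 7 counts in any library. With the block, 1 of the 7 neuroendocrine markers tested was called higher and 1, *NCAM1*, lower (adjusted p under 0.05, edgeR), against 5.83% of all genes. Of the mesenchymal and immune markers, *COL1A2* had 113 to 197 counts, *COL1A1* 28 to 59, *PTPRC* 21 to 57 and *CD14* 25 to 52 counts. The epithelial genes *EPCAM* and *KRT18* lay between 481 and 563 CPM and between 162 and 222 CPM. The part of these low collagen and immune counts in the results was not tested.

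The siKIFC1 replicate 3 library stood apart from the other siKIFC1 libraries by base composition. Across 11619 genes, its log2 CPM minus the mean of siKIFC1 replicates 1 and 2 had a Pearson correlation of -0.642 with the GC content of the transcript, where the same measure for control replicate 3 had one of -0.099. Genes are not independent replicates. The median difference was 0.23 on the log2 scale for the 3873 genes of lowest GC content (30.7% to 43.4%) and -0.29 for the 3873 of highest GC content (53.5% to 83.9%). The tests below are therefore also given without that library.

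No difference between siKIFC1 and control libraries passed the test for any of the 10 genes. By the quasi-likelihood test of edgeR, 0 of the 10 passed a Benjamini-Hochberg adjusted p under 0.05, a threshold passed by 0.697% of the 14777 genes tested. At an unadjusted p under 0.05 the number was also 0, where 9.26% of all genes passed. At an adjusted p under 0.05, DESeq2's Wald test called 0 of the 10 and 274 of the 14777 genes. By the same threshold limma-voom called 0 of the 10 and 97 of the 14777. Both also gave 0 of the 10 at an unadjusted p under 0.05, for which their share of all genes is not given here. With the study's own rule, which asks for an unadjusted p under 0.05 together with more than a 1.5-fold difference, 0 of the 10 were called, against 2.53% of all genes. The 3 siKIFC1 values and the 3 control values overlapped for every one of the 10 genes, whereas the groups did not overlap for 15.5% of all genes. The median log2 fold change was 0.04 over the 10 genes and 0.01 over all genes tested, with 6 positive and 4 negative values.

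Without siKIFC1 replicate 3, when 3.13% of all genes were called at an adjusted p under 0.05, the number among the 10 was again 0.

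The libraries also bounded the size of change that could have been missed. For 9 of the 10 genes, the 95% interval of the fold change lay within 1.5-fold in either direction, which held for 65.6% of all genes tested. The exception was *HAUS3*, whose interval ran from 0.948-fold to 1.504-fold, its upper end falling just past that limit. Without siKIFC1 replicate 3, the interval lay within 1.5-fold for all 10 genes and for 62.1% of all genes. Changes that stay inside these intervals remain compatible with these libraries, and no limit of detection was computed.

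**Figure D1:**
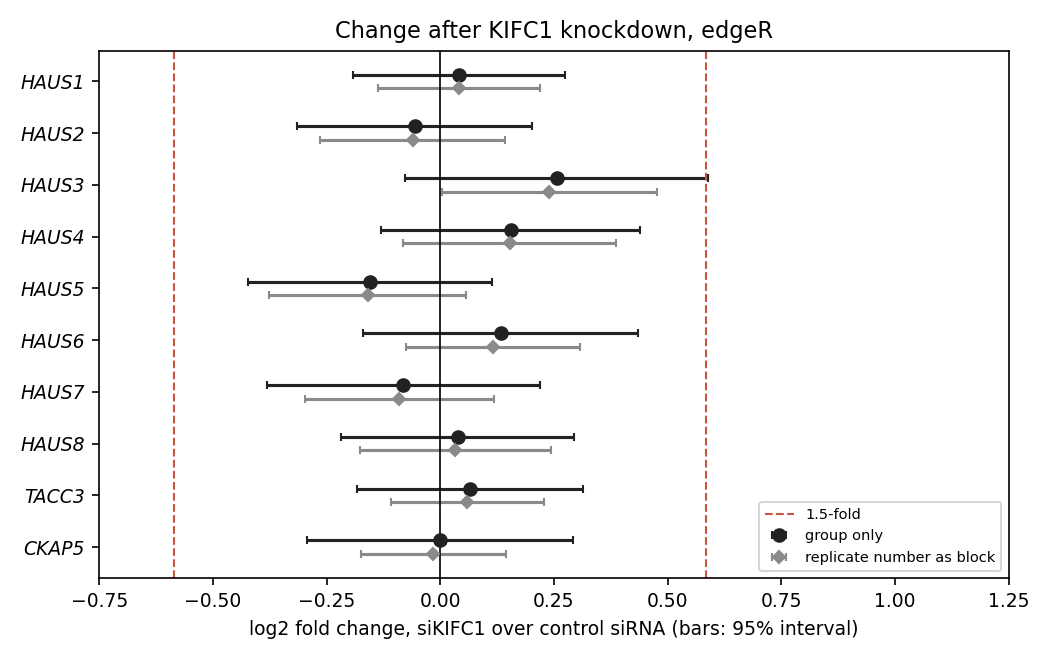
Fitted log2 fold change of each gene, siKIFC1 over control siRNA (horizontal axis), with 95% intervals as bars. Circles are the fit on group alone, diamonds the fit with the replicate number as a block, and dashed lines mark 1.5-fold. All circles have an interval that includes 0, and *HAUS3* lies furthest to the right at 0.26.

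Augmin is built from a pair of subassemblies, one of HAUS1, HAUS3, HAUS4 and HAUS5 and the other of HAUS2, HAUS6, HAUS7 and HAUS8. The first forms the extended part of the complex.

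*HAUS1* (NCBI gene ID 115106, chr18:46104385-46128333 on GRCh38) encodes a coiled-coil subunit that pairs with HAUS4. The gene had 98.9, 95.5 and 86.6 CPM in control replicates 1, 2 and 3 and 104, 91.8 and 93.3 CPM in siKIFC1 replicates 1, 2 and 3. The highest library was siKIFC1 and the lowest was a control, and of the other 4 the controls lay above the siKIFC1 libraries. The means were 93.7 ± 6.32 and 96.4 ± 6.62 CPM (SD, n = 3 each), and the log2 fold change was 0.04 ± 0.11 (SE) with adjusted p = 0.961 (edgeR). Leaving out siKIFC1 replicate 3 gave 0.06.

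*HAUS3* (NCBI gene ID 79441, chr4:2228349-2242121) encodes the coiled-coil partner of HAUS5. It had 23.9, 22.7 and 23.2 CPM in the control libraries and 27.3, 22.0 and 34.0 CPM in the siKIFC1 libraries. The controls were nearly level, while the siKIFC1 libraries spanned the lowest and the highest value of all 6. The means were 23.3 ± 0.584 and 27.8 ± 6.0 CPM (SD, n = 3 each), and the log2 fold change was 0.26 ± 0.15 (SE), with unadjusted p = 0.120 and adjusted p = 0.696 (edgeR). This was the largest of the 10, and it rested mostly on siKIFC1 replicate 3, without which it was 0.08 (adjusted p = 0.761 in edgeR). Without siKIFC1 replicate 2 it was 0.39, with unadjusted p = 0.0139 and adjusted p = 0.347, in a fit where 9.8% of genes had an unadjusted p under 0.05. With the replicate number as a block it was 0.24, with unadjusted p = 0.0463 and adjusted p = 0.269 (edgeR). *HAUS3* was then the 1 gene of the 10 at an unadjusted p under 0.05, where 17.7% of all genes passed.

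*HAUS4* (NCBI gene ID 54930, chr14:22946228-22957090), whose product pairs with HAUS1, had 18.2, 19.6 and 16.99 CPM with control siRNA and 22.0, 20.8 and 18.1 CPM with siKIFC1. It was higher in siKIFC1 than in the same-numbered control in all 3 pairs, by 0.28, 0.09 and 0.09 on the log2 scale, but the lowest siKIFC1 value lay below the controls' middle value. The means were 18.3 ± 1.30 and 20.3 ± 2.00 CPM (SD, n = 3 each), and the log2 fold change was 0.15 ± 0.13 (SE) with adjusted p = 0.814 (edgeR). Without siKIFC1 replicate 3 it was 0.23, with an adjusted p of 0.337.

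*HAUS5* (NCBI gene ID 23354, chr19:35612735-35625355), the partner of *HAUS3*, had the opposite sign. Its values were 28.6, 29.6 and 27.7 CPM with control siRNA and 27.8, 26.9 and 22.5 CPM with siKIFC1. All 3 pairs were lower in siKIFC1, by -0.04, -0.14 and -0.30 on the log2 scale, and the groups overlapped by a single library. The means were 28.6 ± 0.949 and 25.7 ± 2.86 CPM (SD, n = 3 each), and the log2 fold change was -0.15 ± 0.12 (SE) with adjusted p = 0.803 (edgeR), which was -0.07 without siKIFC1 replicate 3.

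The second subassembly carries the microtubule-binding region. *HAUS6* (NCBI gene ID 54801, chr9:19053141-19102904) encodes the subunit that engages NEDD1, the adaptor of the gamma-tubulin ring complex. It had 99.4, 94.8 and 101 CPM with control siRNA and 103, 88.5 and 133 CPM with siKIFC1, so that the lowest and the highest of the 6 libraries were both siKIFC1. The means were 98.5 ± 3.32 and 108 ± 22.5 CPM (SD, n = 3 each), and the log2 fold change was 0.13 ± 0.14 (SE) with adjusted p = 0.872 (edgeR). Without siKIFC1 replicate 3 the sign turned, to -0.04.

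*HAUS8* (NCBI gene ID 93323, chr19:17049729-17075533), also known as Hice1, holds a microtubule-binding region of the complex. It was the steadiest gene in the controls, with 32.4, 32.8 and 32.5 CPM, and had 35.1, 35.8 and 29.4 CPM with siKIFC1. Replicates 1 and 2 with siKIFC1 lay above all controls and replicate 3 below all of them. The means were 32.5 ± 0.238 and 33.4 ± 3.51 CPM (SD, n = 3 each), and the log2 fold change was 0.04 ± 0.12 (SE) with adjusted p = 0.967 (edgeR), and 0.12 without siKIFC1 replicate 3.

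*HAUS2* (NCBI gene ID 55142, chr15:42548838-42569994) encodes the coiled-coil partner of HAUS8 and had 47.0, 44.9 and 44.7 CPM with control siRNA and 46.2, 37.7 and 47.4 CPM with siKIFC1. Only siKIFC1 replicate 2 fell below the controls. The means were 45.5 ± 1.29 and 43.8 ± 5.26 CPM (SD, n = 3 each), and the log2 fold change was -0.06 ± 0.12 (SE) with adjusted p = 0.946 (edgeR), and -0.12 without siKIFC1 replicate 3. *HAUS7* (NCBI gene ID 55559, chrX:153447668-153495465) encodes the partner of HAUS6 and had 35.1, 37.7 and 31.9 CPM with control siRNA and 36.1, 36.0 and 26.9 CPM with siKIFC1. Here siKIFC1 replicate 3 alone lay below the controls. The means were 34.9 ± 2.89 and 33.0 ± 5.28 CPM (SD, n = 3 each), and the log2 fold change was -0.08 ± 0.14 (SE) with adjusted p = 0.927 (edgeR), which turned to 0.05 without that library.

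**Figure D2:**
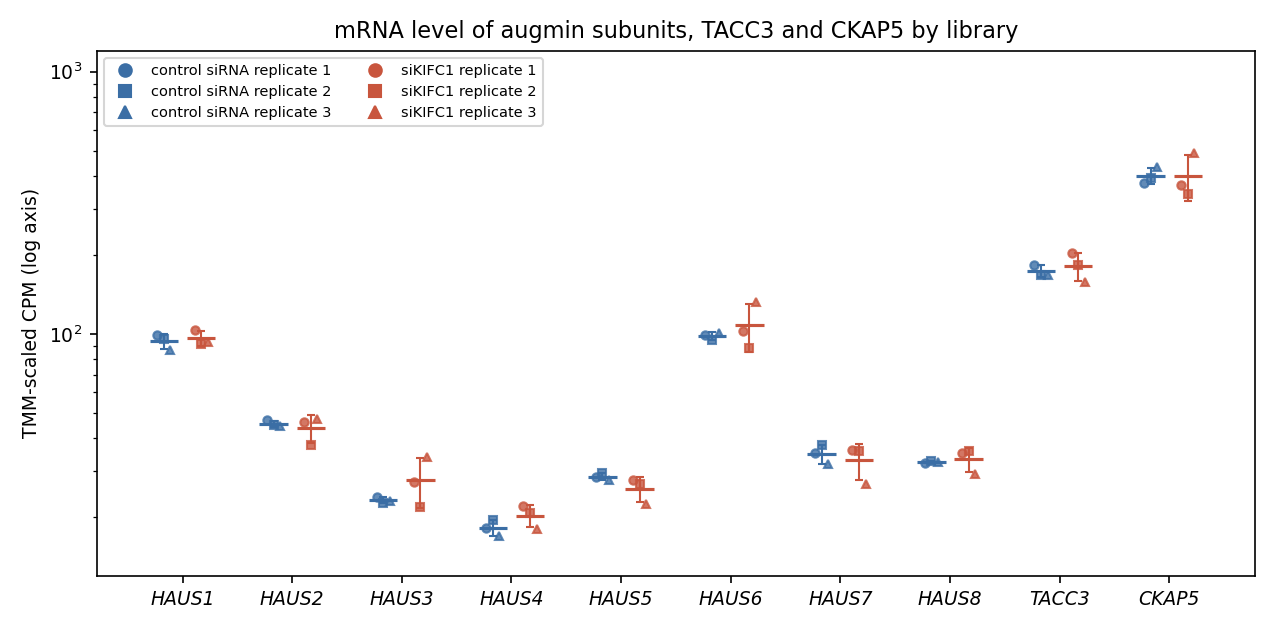
TMM-scaled CPM of each gene in each library on a log axis. Blue symbols are control siRNA and red symbols siKIFC1 libraries, the symbol shape gives the replicate number, and horizontal lines and bars give the mean and SD of 3 libraries. The groups overlap for all 10 genes, and the red triangles (siKIFC1 replicate 3) are highest for *HAUS2*, *HAUS3*, *HAUS6* and *CKAP5* and lowest for *HAUS5*, *HAUS7*, *HAUS8* and *TACC3*.

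Summed over the 8 subunits, augmin mRNA was 383, 378 and 365 CPM in the control libraries and 401, 359 and 404 CPM in the siKIFC1 libraries. The siKIFC1 libraries held the lowest and both of the highest sums.

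*TACC3*, which encodes the Aurora A substrate (NCBI gene ID 10460, chr4:1720631-1745171) had 184, 168 and 168 CPM with control siRNA and 203, 183 and 158 CPM with siKIFC1. Its siKIFC1 libraries again enclosed the controls from both sides. The means were 173 ± 9.0 and 182 ± 22.5 CPM (SD, n = 3 each), and the log2 fold change was 0.07 ± 0.11 (SE) with adjusted p = 0.929 (edgeR), and 0.15 without siKIFC1 replicate 3. *CKAP5*, the microtubule polymerase gene (NCBI gene ID 9793, chr11:46743048-46846280) had 377, 392 and 434 CPM with control siRNA and 369.9, 342 and 490.0 CPM with siKIFC1. Replicate 3 was the highest library of each group. The means were 401 ± 29.6 and 401 ± 78.6 CPM (SD, n = 3 each), a log2 fold change of -0.00 with a 95% interval from -0.29 to 0.29 (adjusted p = 0.999 in edgeR). Without siKIFC1 replicate 3 the log2 fold change was -0.17 (adjusted p = 0.388).

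The spread among siKIFC1 libraries exceeded that among control libraries for most of these genes. The SD of log2 CPM was larger with siKIFC1 for 9 of the 10, *HAUS1* being the exception, and for 70.7% of all genes tested. The siKIFC1 replicate 3 library was the highest or the lowest of the 6 for 8 of the 10 genes, against 50.1% of all genes. It was the highest for 4 (24.7% of all genes) and the lowest for 4 (25.4%).

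The direction of replicate 3 followed the base composition of the transcripts. The transcripts of *HAUS6* (37.3% GC), *HAUS3* (39.3%), *HAUS2* (41.8%) and *CKAP5* (44.4%) were higher in siKIFC1 replicate 3 than in the mean of siKIFC1 replicates 1 and 2, by 0.47, 0.46, 0.18 and 0.46 on the log2 scale. Those of *HAUS4* (51.1% GC), *HAUS8* (52.3%), *HAUS5* (54.0%), *TACC3* (57.8%) and *HAUS7* (59.6%) were lower, with differences of -0.23, -0.27, -0.28, -0.28 and -0.42. *HAUS1* (40.4% GC) did not follow, at -0.07. Fits that allow for GC content in every library left all 10 genes uncalled. The log2 fold changes then ran from -0.14 for *HAUS5* to 0.21 for *HAUS3* with the replicate number as a block, and the lowest p was that of *HAUS3* (unadjusted p = 0.0155, adjusted p = 0.0817, edgeR), in a fit that called 15.9% of all genes. At an unadjusted p under 0.05, *HAUS3* was again the 1 gene of the 10 that passed, where 27% of all genes did. Why replicate 3 differs by GC content was not tested.

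**Figure D3:**
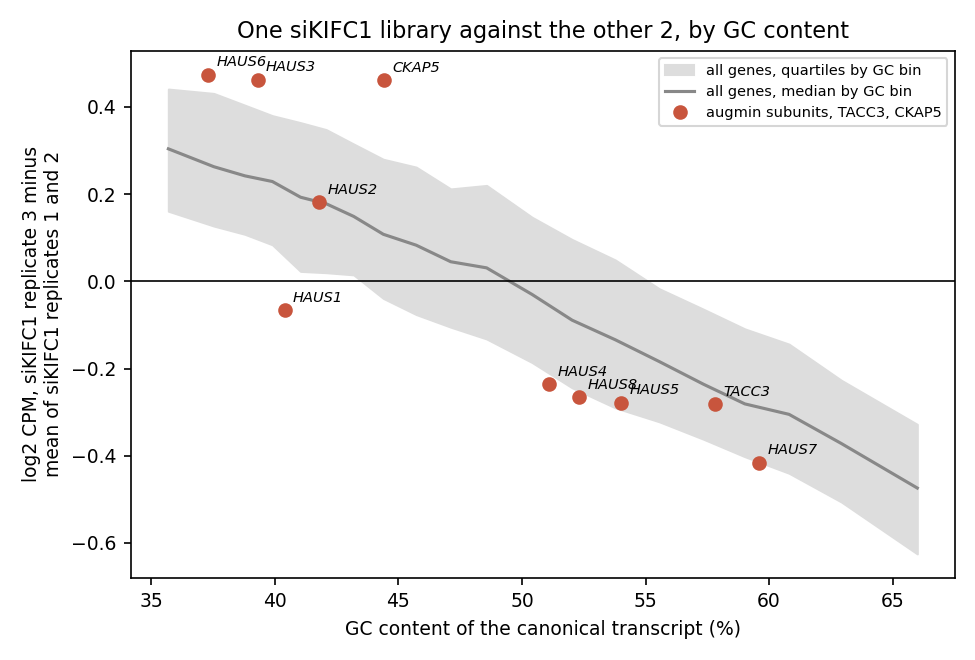
Difference in log2 CPM between siKIFC1 replicate 3 and the mean of siKIFC1 replicates 1 and 2 (vertical axis) against GC content of the transcript in percent (horizontal axis). The grey line and band are the median and quartiles of all genes in bins of GC content, and red points are the 10 genes. *HAUS6*, *HAUS3* and *CKAP5* lie above the band, *HAUS1* lies clearly below it and *HAUS4* and *HAUS8* just below it with *HAUS7* at its edge, and the 5 genes above 50% GC all lie below 0.

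Levels were compared between genes per kilobase of the canonical transcript, as CPM per kb. In the control libraries, *HAUS1* was the most abundant by this length at 87.4 ± 5.89 CPM per kb (SD, n = 3), higher than 95% of the 14325 genes with a transcript length. *TACC3* followed at 62.0 ± 3.22 and *CKAP5* at 55.9 ± 4.13 CPM per kb, and their control ranges overlapped. *HAUS7* was at 26.7 ± 2.22, *HAUS8* at 23.1 ± 0.169 and *HAUS6* at 15.6 ± 0.525 CPM per kb. *HAUS2*, at 11.6 ± 0.329, and *HAUS4*, at 11.5 ± 0.823 CPM per kb, also overlapped. *HAUS5*, at 6.62 ± 0.220, and *HAUS3*, at 3.96 ± 0.0993 CPM per kb, were the least abundant, and *HAUS3* exceeded 33.7% of genes. Over the 3 control libraries all other neighbours in this order were apart, and over all 6 libraries *HAUS7* and *HAUS8*, *HAUS8* and *HAUS6*, and *HAUS5* and *HAUS3* overlapped too.

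The subunits assemble in equal numbers in the complex, yet the mRNA of *HAUS1* was 22.1-fold more abundant per kb than that of *HAUS3* in the control mean. In single libraries the highest subunit exceeded the lowest by 16.8-fold to 23.1-fold, and *HAUS1* was the highest in each of the 6. The lowest was *HAUS3* except in siKIFC1 replicate 3, where it was *HAUS5*. The fold and the order depend on the transcript length assumed. Per kb of all annotated exons the fold was 13.4, *CKAP5* (46.97 CPM per kb in the control mean) came before *HAUS1* (44.2), *TACC3* was at 19.7, and *HAUS7* (8.80) and *HAUS8* (5.88) fell behind *HAUS6* (12.8) and *HAUS2* (10.6). These ratios concern mRNA and carry no measure of protein.

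**Figure D4:**
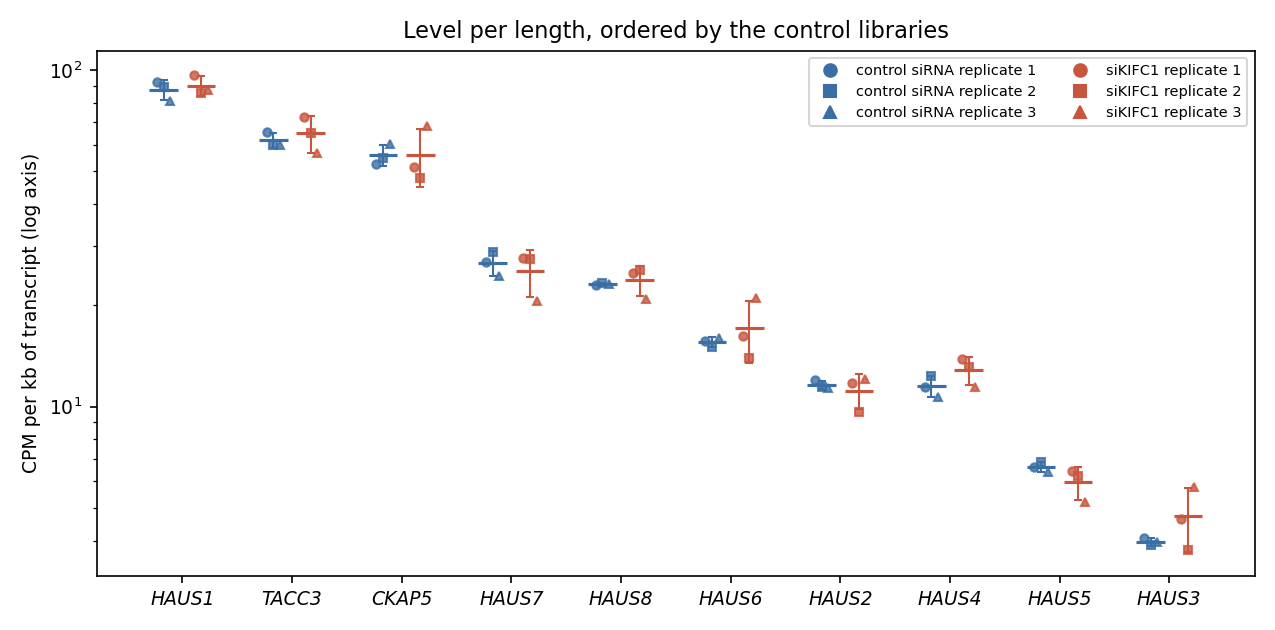
CPM per kilobase of the canonical transcript in each library on a log axis, genes ordered by the mean of the control libraries. Symbols are as in the plot of CPM by library, with the mean and SD of 3 libraries as lines and bars. Levels descend from *HAUS1* at 87.4 to *HAUS3* at 3.96 CPM per kb, and *HAUS3* is the lowest gene in every library but siKIFC1 replicate 3.

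Reads of some of these genes may be shared with other places in the genome, and how the counting treated such reads is not given in the sources used here. Of the 32-base words of its transcript, 56.5% for *HAUS6* and 31.0% for *HAUS1* also occur elsewhere in the primary genome, the most on chromosomes 7 and X. Pseudogenes of both genes are annotated in RefSeq, and none of them is among the genes of the count table. The share was 17.7% for *HAUS2*, 13% for *HAUS3*, 7.79% for *HAUS5* and 2.6% for *HAUS4*, and 0 for *HAUS7*, *HAUS8*, *TACC3* and *CKAP5*. The counts of *HAUS6* and *HAUS1* are thus less certain than the others.

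Some exons also overlap those of neighbouring genes, and the strand setting of the counting is not given in the sources used here. *HAUS7* shares 1414 exonic bases with *TREX2* on the same strand, which had 1 or 2 counts per library. *HAUS3* shares 686 with *POLN*, a DNA polymerase gene on the same strand (log2 fold change -0.11, adjusted p = 0.948 in edgeR), and 2810 with the unnamed protein-coding gene ENSG00000290263. *HAUS4* shares 785 bases with ENSG00000259132 and 80 with *MIR4707* on its strand, and 47 with *PRMT5-DT* on the other. *TACC3* overlaps *TMEM129* by 132 bases on the opposite strand (log2 fold change 0.35, adjusted p = 0.463 in edgeR, and 0.51 with adjusted p = 0.00875 without siKIFC1 replicate 3), and *HAUS2* and *HAUS8* each overlap an antisense long noncoding RNA, ENSG00000261822 by 710 bases and ENSG00000268289 by 237 bases.

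Short words in the 3' UTRs were counted because both of those used here track with fold changes in these libraries. They were found by an earlier scan of the same counts, so no support is drawn from them. GAGATCT occurred in the 3' UTR of 0 of the 10 genes, against 8.97% of 12972 genes with a 3' UTR of at least 50 bases and 42 of the 53 genes called lower with such a 3' UTR. GCAACC occurred in 2 of the 10, against 23.2% of all genes and 44 of the 47 called higher. These were *HAUS3*, with 3 copies and the highest fitted log2 fold change of the 10 (0.26), and *HAUS5*, with 2 copies and the lowest (-0.15). Neither difference passed the test (adjusted p = 0.696 and 0.803, edgeR). Whether these copies bear on the level of either mRNA was not tested.

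Many genes of mitosis carry a cell cycle homology region (CHR, letters TTTGAA) or CCAAT boxes in their promoters, and many genes of the G1/S transition carry E2F sites. RefSeq promoter windows on GRCh38.p14, each of 300 bases around the start site, were searched on both strands, with 12 windows for the 10 genes. TTTGAA occurred in *CKAP5* (2 matches) and *HAUS8* (1 match), and in 15.2% of 35116 windows overall. CCAAT occurred in *CKAP5* and *HAUS7*, and in 34.6% of windows. *CKAP5* was the only 1 of the 10 with both, against 5.9% of windows. E2F-like letters (the word TTCCCGC, the word TTGGCGC, the word TTCGCGC or the word TTGCCGC) were found in 6 of the 10 genes (*HAUS1*, *HAUS2*, *HAUS4*, *HAUS5*, *HAUS7* and *HAUS8*), against 13% of windows. The matches nearest to each other in *CKAP5*, and the one in *HAUS8*, are shown on the strand of the gene, with the matched letters in capitals (TTCAAA is TTTGAA on the other strand):
CKAP5, chr11:46846336-46846365, minus strand: gcccacaggcctTTCAAAtggaccaataaa
CKAP5, chr11:46846326-46846355, minus strand: ctttcaaatggaCCAATaaaagtccgatgg
HAUS8, chr19:17075449-17075478, minus strand: ggcgggtccggcTTTGAAaagccggcgggt
A match of letters is not a measured binding site. Counts for the 10 genes are by gene, over 12 windows, whereas the shares are by window over all 35116. The 12 windows ran from 60.7% GC (*HAUS5*) to 75.3% GC (*HAUS3*), and the shares were not matched for GC content.

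The pathways around augmin were examined through lists of genes written from general knowledge. All 12 listed genes of the gamma-tubulin ring complex, which augmin recruits, and of its recruiters were measured. At an adjusted p under 0.05 in edgeR, which 0.697% of all genes passed, 0 were higher and 0 lower, as without siKIFC1 replicate 3, with a median log2 fold change of 0.02 and 6 positive and 6 negative values, beside 0.01 over all genes. They ran from -0.13 for *TUBG1*, the main gamma-tubulin, to 0.20 for *TUBGCP3*, a core subunit of the ring. *NEDD1*, the partner of HAUS6, had a log2 fold change of -0.00 (adjusted p = 0.999), with 33.7 ± 1.06 CPM in control and 33.6 ± 4.99 CPM in siKIFC1 libraries (SD, n = 3 each). It is named for its link to HAUS6, outside the rule for named genes.

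The 9 partners and paralogs of TACC3 and CKAP5 likewise had 0 higher and 0 lower, with a median log2 fold change of 0.02, and of -0.03 with the same counts without siKIFC1 replicate 3. Their range was from -0.19 for *TACC1*, a paralog of *TACC3*, to 0.12 for *AURKA*, the kinase that phosphorylates TACC3. Without siKIFC1 replicate 3, *TACC1* was at -0.40 (adjusted p = 0.0859 in edgeR) and *AURKA* at 0.09 (adjusted p = 0.647 in edgeR). *AURKA* had 93.9, 99.9 and 91.3 CPM with control siRNA and 98.9, 103 and 107 CPM with siKIFC1, and the groups overlapped.

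Among 12 genes of spindle pole focusing and the Ran pathway, 0 were higher and 0 lower at an adjusted p under 0.05, with a median of 0.05, and of -0.01 with the same counts without siKIFC1 replicate 3. The highest was *DLGAP5* (0.20), which encodes a kinetochore fiber stabilizer. The lowest was *NUSAP1*, a microtubule crosslinker at the spindle, with 169, 144 and 140.1 CPM in control and 135, 114 and 133 CPM in siKIFC1 libraries. All its siKIFC1 values lay below all its controls. Its log2 fold change was -0.25 ± 0.11 (SE), with adjusted p = 0.550 (edgeR), or 0.0950 with the block and 0.178 without siKIFC1 replicate 3.

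Of the 13 markers of G2 and mitosis, 0 were higher and 0 lower, and the median was 0.06, with *CCNB2*, a mitotic cyclin gene, highest at 0.17. *MKI67*, which encodes the proliferation antigen Ki67, was lowest. It had 465, 412 and 557 CPM with control siRNA and 328, 319 and 515 CPM with siKIFC1, lower in siKIFC1 in each same-numbered pair although the groups overlapped. Its log2 fold change was -0.30 ± 0.18 (SE) with adjusted p = 0.689 (edgeR). With the block it was -0.33 with adjusted p = 0.00914 (edgeR), the only call among the 46 genes of these lists in that fit, which called 5.83% of all genes and 0 of the 10 augmin and partner genes. In the fit without the block, 0 of the 46 passed an unadjusted p under 0.05, where 9.26% of all genes did. Without siKIFC1 replicate 3, *MKI67* was again the only call among the 46. Its log2 fold change was -0.56 with adjusted p = 0.0190 (edgeR), and the median of the G2 and mitosis list was 0.09. In that fit, 18.6% of all genes had an unadjusted p under 0.05 (edgeR). Those that passed were 1 gene of the gamma-tubulin list, 1 of the TACC3 and CKAP5 list, 3 of the spindle pole list and 2 of the G2 and mitosis list.

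**Figure D5:**
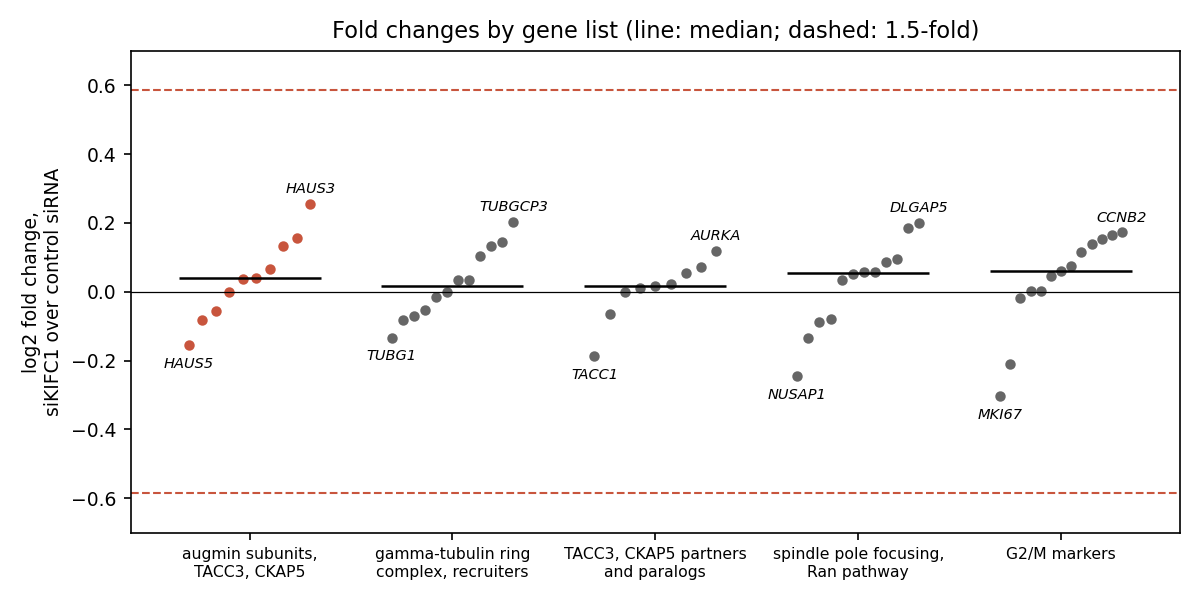
Log2 fold change, siKIFC1 over control siRNA (vertical axis), of each gene tested in 5 groups. Points are genes, the horizontal line in each group is the median, the lowest and highest genes are named, and dashed lines mark 1.5-fold. No gene of any group reaches the dashed lines, and the medians lie between 0.02 and 0.06.

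The genes whose pattern over the 6 libraries was most like that of augmin were found by Pearson correlation with the mean centred log2 CPM of its 8 subunits. Among 11793 genes, the 5 highest were *SLC25A33* (0.981), *FAM86C1P* (0.978), *DDX47* (0.977), *HNRNPLL* (0.971) and *EID1* (0.969), and 14 genes exceeded 0.95. The 6 points share their libraries and scaling, and the values are a description of these libraries only.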

How the data were processed

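RNA was extracted 48 hours after transfection of H146 cells, with 3 control siRNA and 3 siKIFC1 libraries. The authors aligned reads to GRCh38 with HISAT2 (version 2.2.1) and deposited featureCounts (version 2.0.8) counts per NCBI gene ID, as whole numbers without normalization. They tested with DESeq2 1.46.0 under R 4.4.2. The gene annotation, strand setting and handling of reads with several alignments are not given in the sources used here.

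Of 28395 gene IDs, 27745 were matched to a symbol with RefSeq tables. The siKIFC1 and control groups were compared with the two-sided quasi-likelihood test of edgeR 4.0.16 (R 4.3.3), after TMM scaling and with robust dispersion. Genes were kept by filterByExpr (14776), *KIFC1* was added although it had failed that filter, and p-values were adjusted by the Benjamini-Hochberg method. All 10 augmin and partner genes were kept, with 296 to 8003 counts per library. Each SE is the size of the log2 fold change over the root of its F statistic, intervals are at 95%, and CPM are TMM-scaled. The biological coefficient of variation was 13.1%. The labels call the libraries biological replicates, and p-values measure only the spread between them.

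Same-numbered libraries of the groups varied together. After removal of group means, they correlated across 11803 genes at 0.491, 0.393 and 0.464, and others at -0.438 to -0.0135. Removing group means itself pushes the other correlations below 0 when these are positive, so the contrast is partly built in. The main fit is on group alone and does not use the pairing. The pairing comes from this check, not from the labels.

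Alternatives were DESeq2 1.42.0, limma-voom (limma 3.58.1), scaling by DESeq2 size factors or by library size, testing unfiltered genes or those with 10 counts or more in each library, the replicate block, each library left out, and the study's cutoffs. Offsets for GC content and the length of all annotated exons were chosen after seeing the data. Transcripts and 3' UTRs come from GENCODE 44, promoters from RefSeq, and figures were made with Python 3.11.15 and matplotlib 3.10.9.

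The genes named are the 10, *KIFC1*, cell type markers, genes with overlapping exons, and the 5 of most similar pattern. From the pathway lists, they are genes called in the fit on group or with the block, and the highest and lowest of each list. The 10 genes were a fixed list of symbols, not picked by their values, though earlier results of these data were known. The pathway lists were written from general knowledge, with those earlier results known. Marker lists for neuroendocrine and other cell types served to check the cell line. The level of 1 marker and the sequences around the 3' UTR words are not reported here.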

Additional observations from a re-analysis of the deposited data

How the results depend on the processing

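With 103 genes called by edgeR over the whole table, the number was 265 without the filter on low counts, 274 with DESeq2's Wald test, 374 with the study's cutoffs, 267 with offsets for GC content, 861 with the replicate number as a block and 2356 with the block and GC offsets, and between 24 and 468 with 1 library left out, the highest without siKIFC1 replicate 3. The number of the 10 augmin and partner genes called stayed at 0 in each of these. At an unadjusted p under 0.05 it was 1 (*HAUS3*) with the replicate block, with the block and GC offsets, and without siKIFC1 replicate 2, so that leaving out 1 library gave 0 to 1. The block changed no other call among the 10.

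Over 15 alternatives for each gene, the sign held for *HAUS3*, *HAUS4* and *HAUS5*. It turned only where 1 library was left out, with log2 fold changes then from -0.017 to 0.0818 for *HAUS1*, from -0.118 to 0.0343 for *HAUS2*, from -0.0433 to 0.251 for *HAUS6*, from -0.153 to 0.0466 for *HAUS7*, from -0.018 to 0.123 for *HAUS8*, from -0.0242 to 0.154 for *TACC3* and from -0.172 to 0.0946 for *CKAP5*. None of these was called in any fit. The cause was not tested. The fold between the most and least abundant subunit per kb was 22.1 with the canonical transcript and 13.4 with all annotated exons, by the lengths used.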
